A study of Homo sapiens with 4 samples.

Results

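Slow-cycling cells that kept a Claret dye were compared with Bulk cells of the same culture by RNA sequencing, gene by gene. Claret and Bulk are 2 of the 4 libraries of the series, and the eGFP and Violet libraries are given beside them as context. A gene entered the comparison when its mean over the 4 libraries was at least 1 CPM (reads scaled to the same library total). Of the 58735 genes of the deposited table, 14585 (24.8%) met this rule, and 12480 of them are protein coding. The rule used the mean level only, and Bulk is 1 of the 4 libraries. A gene high in Bulk alone therefore needs a higher level to pass than a gene low in Bulk alone.

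All 4 libraries came from MDA-MB-231, a long-established line of human breast cancer that lacks hormone receptors and HER2 amplification, transduced with TetOn-H2BeGFP, a doxycycline-switched fusion of histone H2B and eGFP. Every group had doxycycline at 5 μg/ml for 3 days, took up the Claret and the Violet dye, and was chased for 12 days. The Claret, eGFP and Violet groups are the 1% of cells that retained most of that label. The Bulk group passed the sorter with no gate on fluorescence, so it carries the same reporter, drug and dyes. Each group is 1 library, so no difference below has a replicate check. The treatment field names another sort than the title in every sample: it gives Claret for the title Bulk, eGFP for the title Claret, Violet for the title H2B-eGFP and un-gated for the title Violet. Groups follow the titles, which are also the column names of the deposited tables. With groups from the treatment field, the library titled Bulk is set against the library titled Violet, and the directions of the main counts turn, as given beside them below.

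A cell shares its dye and its labelled histones between daughters at each division, so label retained after a chase marks cells that divided little. Cells that leave the division cycle lose the transcripts of replication and mitosis, which E2F factors, MuvB complexes and FOXM1 otherwise drive. Cells short of amino acids or with unfolded proteins in the endoplasmic reticulum (ER) phosphorylate the initiation factor eIF2α. General translation then slows, while the transcription factor ATF4 is made and, with CHOP, switches on genes of amino-acid supply, redox balance and cell death.

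Summed reads were 16033922 in Bulk and 16976909 in Claret, and 3 reads, the upper limit that a count of 0 allows, corresponded to 0.187 and 0.177 CPM. Genes with at least 10 reads numbered 15203 in Bulk and 16005 in Claret. Genes known to be expressed by MDA-MB-231 (VIM, CD44, EGFR, AXL, CAV1, LGALS1, S100A4 and ANXA1) were all present, with a summed level of 4144 CPM in Bulk and 4996 CPM in Claret, and 0 of 8 were called. Immune markers summed to 0.873 CPM in Bulk and 0.648 CPM in Claret, with 6 and 7 of 10 at 0 reads, PTPRC, CD3E, CD2 and MS4A1 having at most 2. Endothelial and stromal markers summed to 18.6 and 36.6 CPM, with PDGFRB at 201 and 431 reads, ACTA2 at 27 and 74 and VWF at 4 and 19, the latter pair called higher, and with CDH5, LUM and DCN at 0 to 2 reads. Red-cell and platelet markers summed to 0.748 and 2.36 CPM, with HBB and PPBP at 0 reads in both. The luminal markers ESR1, PGR and CDH1 had 7, 0 and 3 reads in Bulk and 3, 0 and 0 in Claret, while KRT19 had 2345 and 7329. Of the 8 luminal markers 5 were kept, with 1 called higher and 1 lower, at log2 ratios from -2.24 to 1.54. The part of these shifts in the results below was not tested.

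In Claret, most listed targets of ATF4 and CHOP and many weakly expressed genes were higher than in Bulk, and most listed genes of DNA replication and mitosis were lower. Reads of the libraries were tested gene by gene with an exact conditional binomial test, two-sided, on TMM-scaled library sizes, and p-values were adjusted by Benjamini-Hochberg over the 14585 genes. A gene is called, or said to have risen or fallen, when the adjusted p was under 0.05 and the log2 ratio of Claret to Bulk was at least 1 in size. Called higher were 1640 genes (11.2% of those tested) and called lower 980 (6.72%), together 18%. The counts in each gene list below are to be read beside these shares. The median log2 ratio over all genes was -0.01, and 5% of genes lay under -1.14 and 5% above 1.54. A further 7418 genes (50.9%) had an adjusted p under 0.05 with a smaller ratio. The smallest log2 ratio among called genes was 1.00009 in size and the largest outside was 0.999486. The test sees counting error only and compares these libraries, not the conditions.

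Genes called higher held 2.82% of the reads in Bulk and 7.91% in Claret, with a median level of 1.94 CPM in Bulk and 6.12 CPM in Claret. Genes called lower held 9.15% of the reads in Bulk and 3.30% in Claret, and their median level went from 41.6 to 13.4 CPM. Large ratios lay mainly on the higher side: 387 genes were higher and 182 lower by at least 2 on the log2 scale, and 91 and 17 by at least 3. No reads in Bulk and at least 10 in Claret were found for 80 genes, of which 38 are protein coding, and the reverse held for 14 genes, of which 3 are. Of all calls, 62.6% were higher, but with a filter at a mean of 10 CPM the split was 48.9% and on the scale log2(FPKM + 1) it was 48.8%. An edgeR exact test with an assumed coefficient of biological variation of 0.4 called 24 genes higher and 2 lower. The 2 lower were the pseudogene NSFP1 and FAM111B, so no gene of the division lists below was called lower by that test. Groups from the treatment field gave 1008 higher and 1696 lower.

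**Figure D1:**
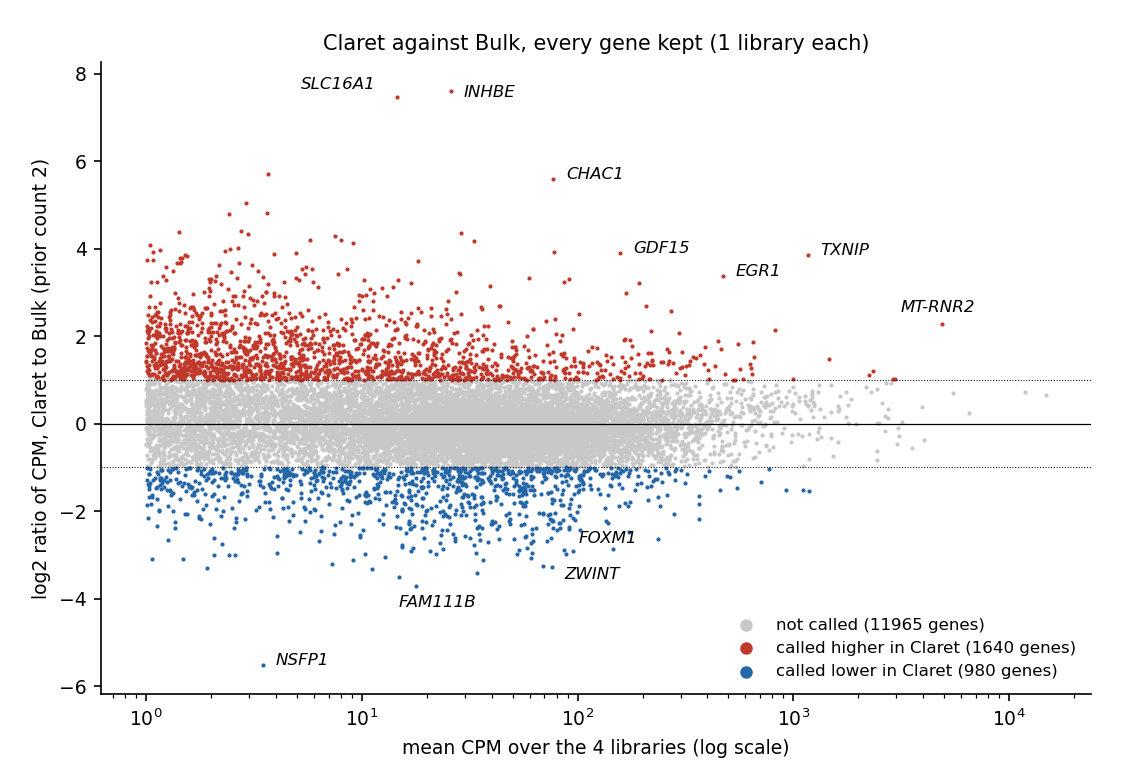
Every gene kept, by its mean CPM over the 4 libraries (horizontal axis, log scale) and its log2 ratio of CPM of Claret to Bulk (vertical axis). Red points are the 1640 genes called higher, blue points the 980 called lower, grey points were not called, and dotted lines mark ratios of 1 and -1. Red points crowd at low CPM, and the lowest blue point is NSFP1 at a mean of 3.49 CPM.

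Most genes of the division machinery were lower in Claret. Over 10 lists of division genes, 163 different genes were kept, of which 133 (81.6%) fell, against 6.72% of all genes, and 1 rose. Their median log2 ratio was -1.90, beside -0.01 over all genes. Together they made up 13.6% of all genes called lower. The lists and their members were chosen with earlier results of these data known, so these shares are no independent test. In bulk samples, fewer cells of a type and less RNA per cell cannot be told apart.

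All 19 genes of origin licensing and the replicative helicase fell, with a median of -2.31. GINS2, a subunit of the GINS complex that completes the helicase, had 555 reads in Bulk against 58 in Claret, 50 in Violet and 49 in eGFP. Bulk stood far above the other 3, which lay together, and the log2 ratio of Claret to Bulk for GINS2 was -3.32 (95% counting interval -3.78 to -2.97). MCM10, a factor needed to start the fork, had 1063 reads in Bulk and 143 in Claret (-2.98), and CDC6, which loads the helicase, had 2575 and 464 (-2.57). The 6 subunits of the MCM ring were not equally lower: MCM4 was at -2.40, MCM5 at -2.36, MCM2 at -2.31, MCM7 at -2.07, MCM3 at -1.92 and MCM6 at -1.22. GMNN, the inhibitor of licensing, fell by 1.90 and its partner CDT1 by 1.39 on the log2 scale.

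At the replication fork 21 of 24 genes fell, with a median of -1.85. CLSPN, the checkpoint adaptor claspin, had 1726 reads in Bulk and 172 in Claret (-3.42, interval -3.67 to -3.21), the lowest ratio of the list. RPA3, the small subunit of the single-strand binding complex, had the ratio nearest 0 (474 and 341 reads, -0.58). POLD2, the member with the most reads over the 4 libraries, was at -0.73, and neither was called. RPA1 had more reads in Bulk than POLD2 (4576 and 3820) and fell by 1.37. Of 9 genes of deoxynucleotide synthesis, 8 fell. RRM2, the cell-cycle subunit of ribonucleotide reductase, had 385 reads in Claret, 310 in Violet and 213 in eGFP, but 3007 in Bulk, a log2 ratio of -3.07 in Claret. Its stress-responsive relative RRM2B was the exception of that list, with 707 reads in Bulk and 1005 in Claret (0.40, not called). TYMS, which makes thymidylate, fell by 2.71.

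Repair genes of homologous recombination and the Fanconi pathway were lower in 13 of the 14 kept, with a median of -1.93. RAD54L, a motor of strand exchange, had 636 reads in Bulk and 81 in Claret (-3.05), BRCA2 894 and 255 (-1.91) and BRCA1 1007 and 347 (-1.64). PALB2, the bridge between BRCA1 and BRCA2, had 298 and 249 reads (-0.36, not called). The 15th member was under the filter.

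Most mitotic genes fell as well. At the kinetochore and spindle checkpoint, 23 of 24 fell (median -2.32), all 12 mitotic kinesins fell (median -2.08), and 14 of 17 cohesin and condensin genes fell (median -1.68). ZWINT, which holds the checkpoint complex on the kinetochore, had 3869 reads in Bulk against 429 in Claret, 321 in Violet and 260 in eGFP. The Claret value is the highest of the 3 slow-cycling libraries and far under Bulk, with a log2 ratio of -3.27 (-3.43 to -3.14). CENPH was the kinetochore gene not called (150 and 106 reads, -0.60), and CENPF, the member with the most reads, fell from 5478 to 1225 (-2.27). KIF20A, a kinesin of cytokinesis, had 2418 and 329 reads (-2.98), and KIF18A had 703 and 280 (-1.43), the smallest drop among the kinesins. Among ring complexes, the condensin I subunit NCAPH fell by 2.95 and separase (ESPL1) by 2.88, while the cohesin subunits RAD21 (-0.55), STAG2 (-0.59) and STAG1 (-0.81) were not called. Cohesin also works outside mitosis, in holding chromatin loops.

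Of 17 kept cyclins, cyclin-dependent kinases and CDC25 phosphatases, 10 fell and 0 rose. CCNE2, a cyclin E that starts S phase, had 38 reads in Claret, 52 in Violet and 33 in eGFP, but 343 in Bulk (Claret -3.21, interval -3.81 to -2.80), while the other cyclin E, CCNE1, had 116 reads in Bulk and 65 in Claret (-0.92, not called). CCNA2 fell by 2.39, CCNB1 by 2.08 and CDK1 by 1.89. Among cyclins and kinases of G1, 4 were not called: CCND1 went from 9833 to 7565 reads (-0.49), CCND3 was at -0.90, CDK4 at -0.87 and CDK6 at -0.43. CCNG1 and CCNG2, cyclins linked to arrest, were at 0.38 and 0.13. Per length, CCND1 was the most expressed member of that list in both libraries, at 131 FPKM in Bulk and 92.3 FPKM in Claret.

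Among E2F factors and pocket proteins the direction depended on the member. The repressor E2F8 had 766 reads in Bulk and 71 in Claret (-3.50, interval -3.91 to -3.19), MYBL2 3494 and 393 (-3.25) and FOXM1 4159 and 571 (-2.97). The activators E2F1 and E2F2 fell by 2.05 and 2.48, and E2F3 was at -0.83, not called. RBL2 (p130), the pocket protein of resting cells, had 542 reads in Bulk against 1299 in Claret, 1290 in Violet and 1251 in eGFP. All 3 slow-cycling libraries lay above Bulk, and it was the 1 division-list gene called higher (1.15, 1.01 to 1.30). RBL1 (p107), its relative of cycling cells, had 986 and 269 reads (-1.97), and RB1 itself was at -0.68, not called. On the scale log2(FPKM + 1) RBL2 was at 0.99, under the size limit. Replacement histones followed in part: H2AFX fell by 2.20 and H2AFZ by 1.06, while the linker histone H1F0 (7781 and 9493 reads, 0.18) and H3F3B (-0.22) were not called.

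Promoters of 3 of these genes are shown because they hold the CHR, an element of mitotic promoters bound by MuvB complexes, in the 250 bases before the start. They are the lowest called members of the division lists with a match. Capitals mark TTTGAA or, where the element lies on the other strand, its complement, and sequences are from RefSeq on GRCh38.p14, 5′ to 3′ on the gene's strand. ZWINT lies at chr10:56361274-56361523 on the minus strand with its match starting 17 bases before the start, ESPL1 at chr12:53268049-53268298 on the plus strand with its match at 31, and CDC20 at chr1:43358731-43358980 on the plus strand with matches at 178 and 65.
ZWINT: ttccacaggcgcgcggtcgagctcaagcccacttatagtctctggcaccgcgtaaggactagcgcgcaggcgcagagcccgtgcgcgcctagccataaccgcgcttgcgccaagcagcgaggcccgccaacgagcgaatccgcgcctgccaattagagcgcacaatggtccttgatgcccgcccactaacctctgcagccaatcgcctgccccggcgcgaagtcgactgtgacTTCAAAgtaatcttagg
ESPL1: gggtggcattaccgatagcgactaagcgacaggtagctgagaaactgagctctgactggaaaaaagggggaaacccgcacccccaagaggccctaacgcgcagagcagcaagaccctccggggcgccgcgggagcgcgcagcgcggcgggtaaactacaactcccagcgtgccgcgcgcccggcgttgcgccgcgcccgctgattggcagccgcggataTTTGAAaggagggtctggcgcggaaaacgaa
CDC20: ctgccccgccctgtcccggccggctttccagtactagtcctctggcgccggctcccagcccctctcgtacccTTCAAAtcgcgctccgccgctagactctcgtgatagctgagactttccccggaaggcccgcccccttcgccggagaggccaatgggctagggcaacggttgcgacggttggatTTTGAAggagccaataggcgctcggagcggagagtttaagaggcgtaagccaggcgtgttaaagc

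CDC20, the activator of the anaphase complex, had 437 reads in Claret, 372 in Violet and 374 in eGFP, but 2707 in Bulk (Claret -2.73). The motif was counted on both strands in 10352 promoters of the genes kept. It was in 20.4% of the 113 promoters of division-list genes called lower, in 15.2% of all 702 promoters of genes called lower, in 6.70% of the 985 of genes called higher and in 8.08% of all. Outside the division lists, 14.3% of the 589 promoters of genes called lower held it.

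**Figure D2:**
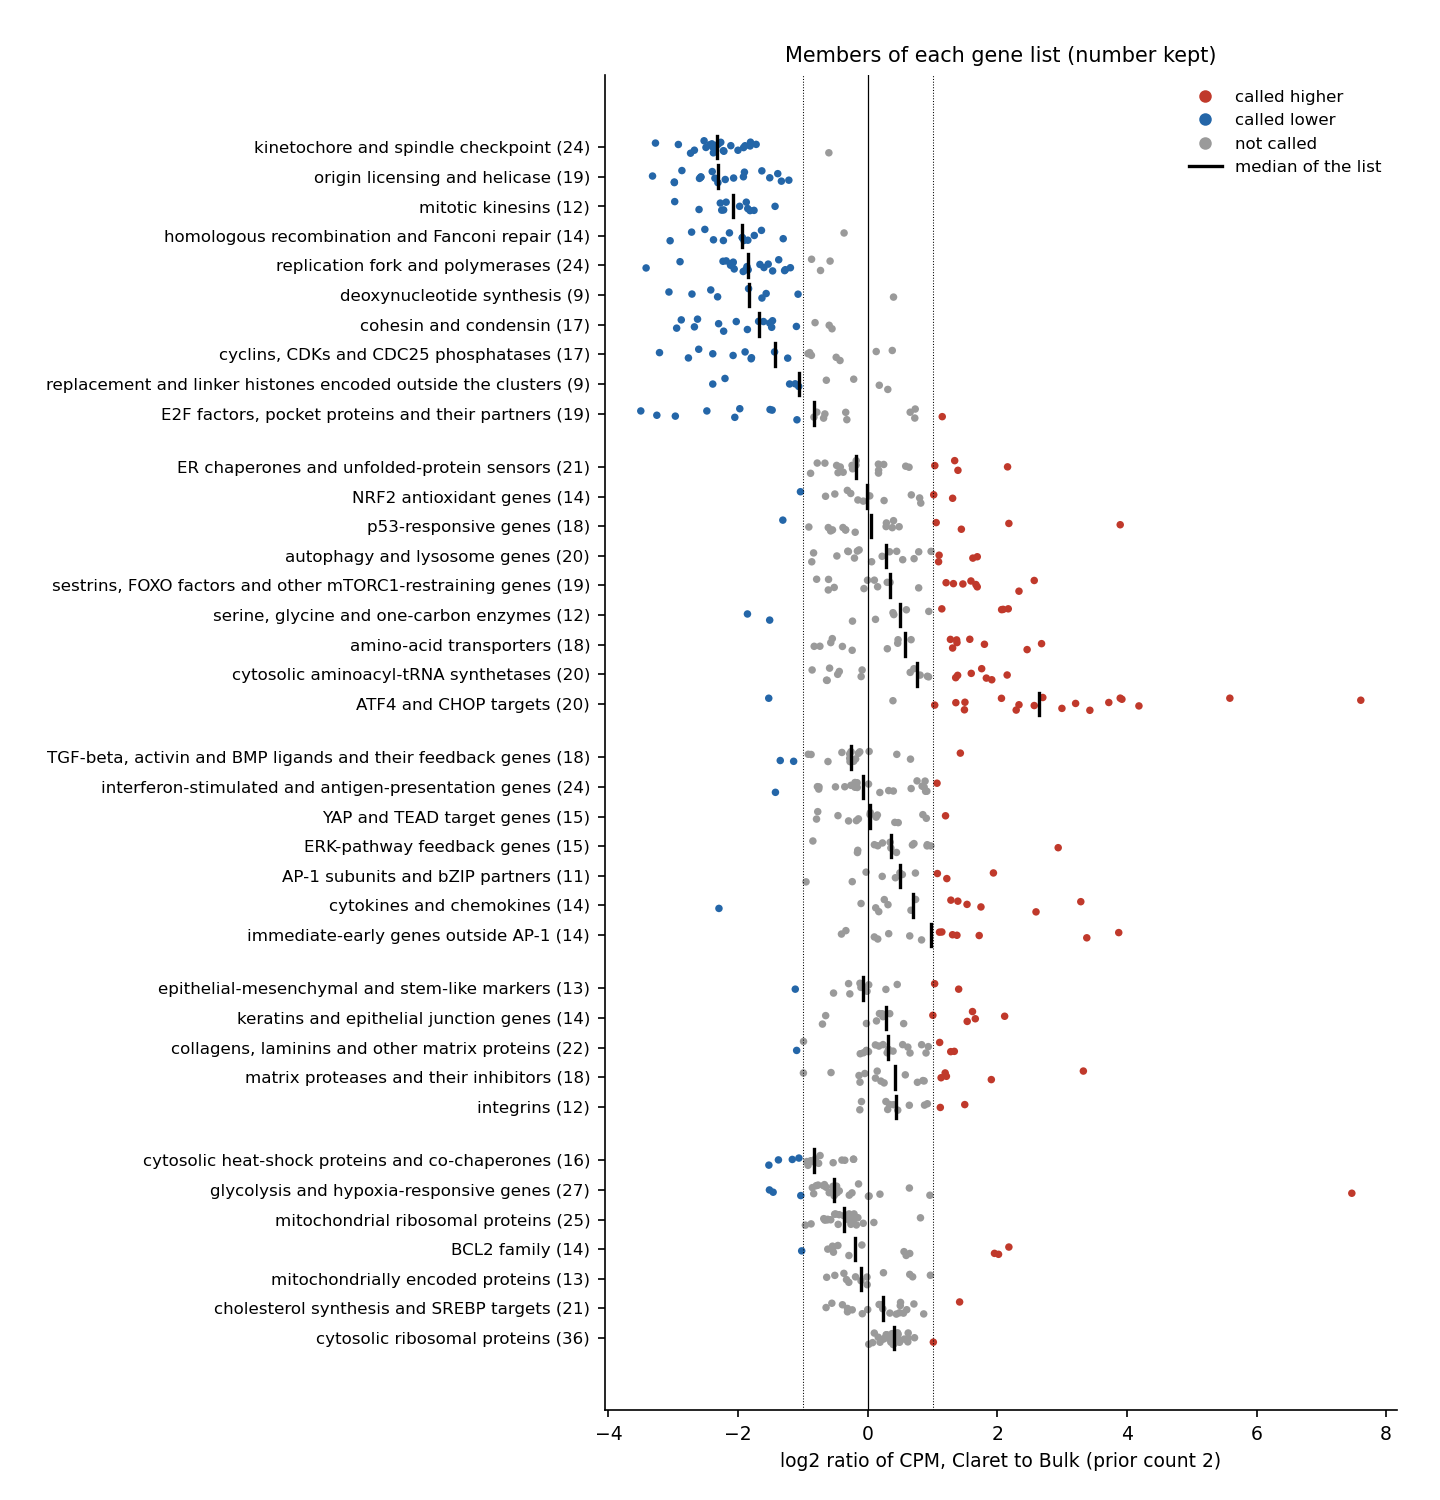
Log2 ratio of CPM of Claret to Bulk (horizontal axis) of each kept member of 38 gene lists, grouped by role. Each point is 1 gene, red or blue where called, and the black bar is the median of the list. The medians of the 10 division lists lie between -2.32 and -0.83, and the ATF4 and CHOP list has a median of 2.64.

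Over 9 lists of stress genes, 55 of 157 different genes (35.0%) rose and 5 (3.18%) fell, beside 11.2% and 6.72% over all genes. Their median was 0.40, and the lists differed in their counts. These lists, too, were chosen with earlier results of these data known. Among targets of ATF4 and CHOP, 18 of 20 genes rose and 1 fell, with a median of 2.64, against the same shares over all genes. INHBE, an activin subunit, had 620 reads in Claret, 431 in Violet and 615 in eGFP, but 1 in Bulk, and the interval of its log2 ratio in Claret was 6.68 to 14.47. CHAC1, which degrades glutathione, had 33 reads in Bulk and 1810 in Claret, a log2 ratio of 5.59 (5.17 to 6.21). NUPR1, a stress-induced chromatin protein, had 36 reads in Bulk against 742 in Claret, 688 in Violet and 656 in eGFP (Claret 4.19, 3.77 to 4.78). For all 3 genes Bulk was low and the other libraries lay together.

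The list also holds secreted factors. GDF15, a growth factor that rises with cell stress, had 3672 reads in Claret, 3383 in Violet and 2890 in eGFP, but 227 in Bulk, and was 14.9-fold higher in Claret. ADM2, a calcitonin-family peptide, had 108 reads in Bulk and 1795 in Claret, 15.2-fold. Per length, DDIT4, an inhibitor of mTORC1 signalling, was the most expressed member in Claret, at 169 FPKM beside 28.9 FPKM in Bulk.

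Enzymes of amino-acid supply in the list rose too. ASNS, which makes asparagine, had 26 reads in Bulk and 395 in Claret (3.72, 3.24 to 4.45), and CTH, which makes cysteine, had 54 and 647 (3.43). PCK2, the mitochondrial PEP carboxykinase, had 683 and 4801 (2.70). Among transcription factors of the pathway, ATF3 rose from 34 to 356 reads (3.21), DDIT3, which encodes CHOP, from 101 to 541 (2.29), CEBPG by 1.49 and CEBPB by 1.36. DDIT3 overlaps MARS, another called gene, on the opposite strand, and whether the reads were counted by strand is not given in the sources used here. TRIB3, a pseudokinase that restrains the pathway, rose by 3.00, and PPP1R15A, which recruits the phosphatase of eIF2α, by 1.03. ATF5 was the 1 member that fell, with 263 reads in Bulk and 97 in Claret (-1.53), and VLDLR was at 0.39, not called. ATF5 overlaps NUP62 on the opposite strand, so its reads, too, are uncertain in part.

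Promoters are shown for the 3 highest called members of the list that hold the CARE, the composite element at which CEBP and ATF proteins bind as dimers. Capitals mark TGATGNAA or its complement on the other strand. CHAC1 lies at chr15:40953221-40953470 on the plus strand with its match starting 209 bases before the start, ASNS at chr7:97872409-97872658 on the minus strand with its match at 68, and ATF3 at chr1:212565157-212565406 on the plus strand with its match at 191.
CHAC1: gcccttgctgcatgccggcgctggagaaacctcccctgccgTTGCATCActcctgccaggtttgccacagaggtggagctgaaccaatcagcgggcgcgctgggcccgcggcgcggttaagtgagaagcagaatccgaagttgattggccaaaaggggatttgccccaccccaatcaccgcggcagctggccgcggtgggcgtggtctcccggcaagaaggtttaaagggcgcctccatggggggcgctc
ASNS: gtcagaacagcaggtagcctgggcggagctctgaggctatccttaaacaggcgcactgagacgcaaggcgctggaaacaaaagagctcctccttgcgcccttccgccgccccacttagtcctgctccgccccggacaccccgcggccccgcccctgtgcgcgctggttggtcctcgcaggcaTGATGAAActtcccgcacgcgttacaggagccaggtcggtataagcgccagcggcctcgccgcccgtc
ATF3: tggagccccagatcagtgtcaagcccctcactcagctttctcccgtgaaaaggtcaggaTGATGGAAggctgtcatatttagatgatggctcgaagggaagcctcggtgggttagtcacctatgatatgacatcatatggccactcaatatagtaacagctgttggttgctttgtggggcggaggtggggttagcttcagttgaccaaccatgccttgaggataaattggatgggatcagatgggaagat

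The element was in 3 of the 16 promoters matched among the list's genes called higher (18.75%), in 2.74% of promoters of all genes called higher and in 1.40% of all promoters.

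**Figure D3:**
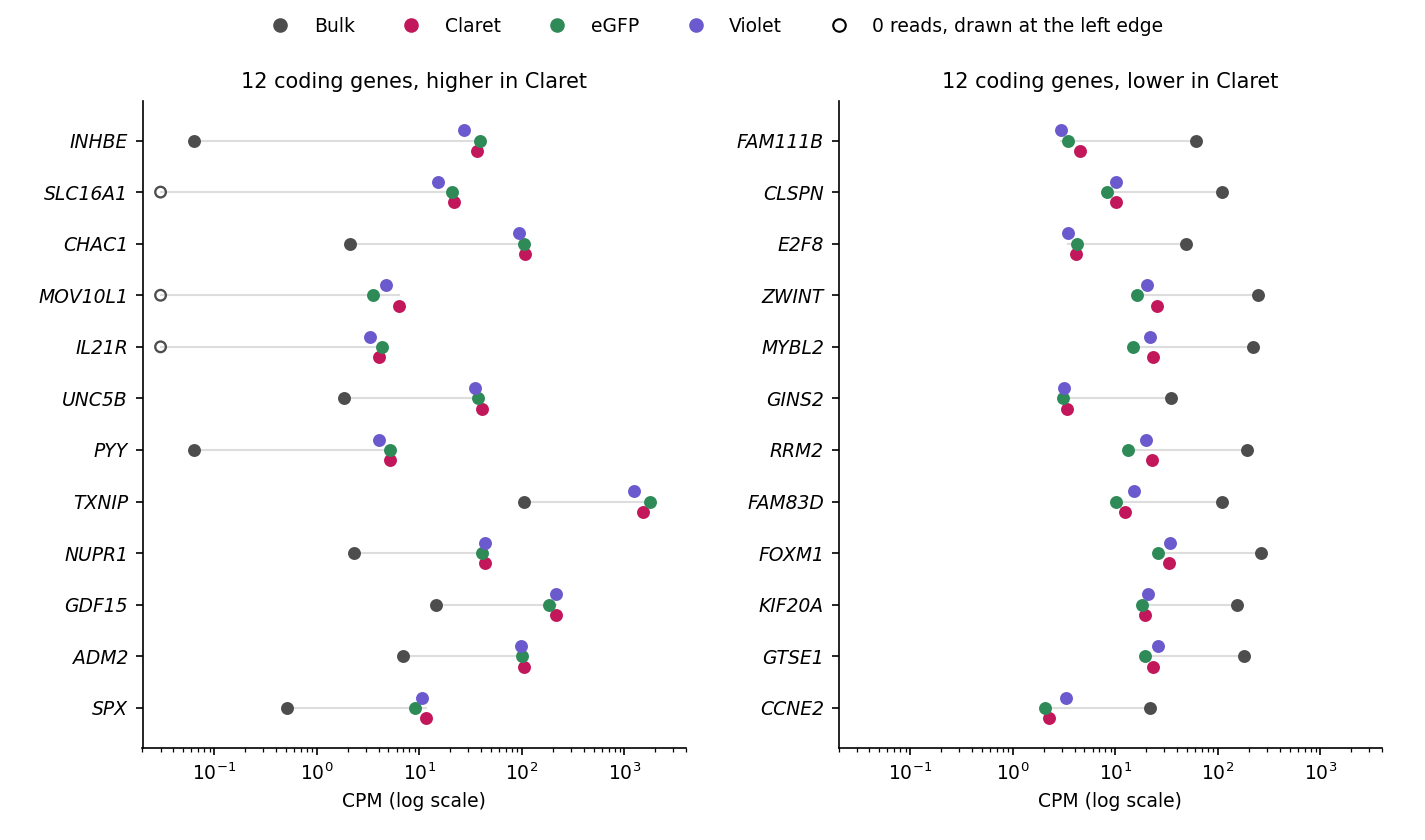
CPM (horizontal axis, log scale) in the 4 libraries for the 12 protein-coding genes called higher (left) and the 12 called lower (right) whose counting interval lay farthest from 0. Each point is 1 library, and open circles mark 0 reads. In all 24 genes Bulk lies apart on one side and Claret lies with eGFP and Violet on the other.

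Cytosolic aminoacyl-tRNA synthetases, which charge tRNAs with amino acids, were divided. Of 20, 7 rose and 0 fell, beside 11.2% and 6.72% over all genes, with a median of 0.76. SARS, for serine, had 3856 reads in Bulk against 18475 in Claret, 14997 in Violet and 15870 in eGFP (Claret 2.15), and CARS, AARS, GARS, WARS, YARS and MARS rose by 1.91, 1.83, 1.76, 1.598, 1.39 and 1.36. The lowest were FARSA at -0.86, KARS at -0.63 and HARS at -0.63, none called. Among amino-acid transporters 8 of the 18 kept rose and 0 fell. SLC1A4, a carrier of small neutral amino acids, had 904 reads in Claret, 914 in Violet and 848 in eGFP, but 129 in Bulk (Claret 2.68, 2.43 to 2.98). SLC7A5 and SLC3A2, the chains of the leucine exchanger, rose by 1.38 and 1.37, and SLC7A11, the cystine carrier that shares SLC3A2, by 1.31. SLC38A2, the member with the most reads, was at 0.67 and SLC1A3 lowest at -0.83, neither called.

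The serine and one-carbon enzymes went both ways. The serine makers PHGDH (445 and 2164 reads, 2.17) and PSAT1 (1510 and 6823, 2.07) rose, as did the mitochondrial MTHFD2 (1.14) and ALDH1L2 (7 and 39 reads, 2.09, but 0.27 on log2(FPKM + 1)). The cytosolic enzymes SHMT1 (878 and 260, -1.86) and MTHFD1 (2714 and 1024, -1.51) fell. So the list had 4 genes higher and 2 lower of 12 kept, beside 11.2% and 6.72% over all genes. SHMT2, the member with the most reads, was at 0.40, not called.

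Of 21 genes of the ER folding machinery 4 rose and 0 fell, beside 11.2% and 6.72% over all genes, and the median was -0.18. ERN1, which encodes the sensor IRE1, had 270 reads in Bulk and 1306 in Claret (2.16, 1.98 to 2.36), the highest of the list. XBP1, whose RNA IRE1 splices, rose by 1.34, HERPUD1 by 1.39 and DNAJB9 by 1.04, these 3 named after their values were seen. The abundant chaperones were not called, with CANX, the member with the most reads, at -0.42, HSPA5 at 0.64 and HSP90B1 at 0.25. The last 2 were also named after their values were seen. SDF2L1 was lowest at -0.88, and 10 of the 21 genes lay above 0 and 11 below.

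Genes that restrain mTORC1, the growth kinase complex, were higher in 8 of 19 and lower in 0, with a median of 0.35. SESN2, the leucine-responsive sestrin, had 192 reads in Bulk against 1052 in Claret, 849 in Violet and 972 in eGFP (Claret 2.33), while SESN1 (-0.61) and SESN3 (-0.79) were not called. DDIT4 rose by 2.57, TSC22D3 by 1.67, KLHL24 by 1.59 and PIK3IP1 by 1.47. TSC1, TSC2, FOXO1 and FOXO3 lay between 0.10 and 0.35, not called. SESN2 and DDIT4 are in the ATF4 list as well, and with a filter at 10 CPM or on the scale log2(FPKM + 1) the count of higher genes was 5 or 4. Among autophagy and lysosome genes, 4 of 20 rose and 0 fell, beside 11.2% and 6.72% over all genes. Those 4 were GABARAPL1 (1.69), MAP1LC3B (1.62), CTSL (1.102) and WIPI1 (1.09), the first 2 encoding coats of the autophagosome. SQSTM1, the member with the most reads, was at 0.34, not called.

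In other lists of stress and survival genes most members were not called. Of 18 p53-responsive genes, 4 rose and 1 fell, beside 11.2% and 6.72% over all genes, with a median of 0.05. Those 4 were GDF15, BBC3 (266 reads in Claret, 254 in Violet and 362 in eGFP, but 53 in Bulk, Claret 2.18), TP53INP1 (1.45) and CDKN1A (1.06, or 0.99 after the GC correction). MDM2, the p53 ligase, was at -0.91, not called, and POLH fell by 1.31. Of 14 NRF2 antioxidant genes, 2 rose, SLC7A11 among them, and PRDX1 fell by 1.04. Cytosolic heat-shock proteins were below 0 in all 16 genes, with a median of -0.82 and 4 called lower, and none of those tested was above 0 with library totals, DESeq2 size factors, log2(FPKM + 1) or the GC correction. HSP90AA1, the inducible HSP90, had 29299 reads in Bulk against 10973 in Claret, 9308 in Violet and 9803 in eGFP (Claret -1.52), and HSPH1 fell by 1.38. Among BCL2-family genes, which balance cell death, the death promoters BBC3 (2.18) and BMF (27 and 119 reads, 1.96) rose, and so did the survival gene BCL2A1 (26 and 120, 2.02). BCL2 itself fell by 1.02 and MCL1, the member with the most reads, was at 0.65, not called. BCL2 was at -0.99 with library totals and -0.96 after the GC correction, under the size limit.

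Immediate-early genes outside AP-1, which answer growth and stress signals within minutes, were higher in 7 of the 14 kept and lower in 0, with a median of 0.97. The shares over all genes were 11.2% higher and 6.72% lower. EGR1 had 10649 reads in Claret, 7478 in Violet and 11526 in eGFP, but 947 in Bulk (Claret 3.38, 3.29 to 3.48). Violet was the lowest of the slow-cycling libraries, still well above Bulk. EGR2 had 4 reads in Bulk and 92 in Claret (3.87, 3.01 to 6.32). NR4A1 rose by 1.72, IER2 by 1.38, KLF4 by 1.31, IER3 by 1.14 and ZFP36 by 1.11. KLF2 (-0.40) and NR4A2 (-0.34) were lowest, not called.

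The series title names AP-1. In the AP-1 list 3 of the 11 kept rose and 0 fell, beside 11.2% and 6.72% over all genes. Those that rose were JUNB (1.94), JUND (1.22) and MAFF (1.08), while FOSL2 was lowest at -0.95. After the GC correction, JUND was at 0.92 and MAFF at 0.90, under the size limit. The deposited table assigns 43 of the genes kept to its bZIP class, which holds AP-1 and ATF genes but neither CEBPB nor CEBPG. Of these 43 genes, 12 (27.9%) were called higher, beside 11.2% of all genes. ATF3 led them, DDIT3 and JUNB followed, and ATF4 itself had 3629 reads in Bulk against 14198 in Claret, 11767 in Violet and 12544 in eGFP (Claret 1.86, 1.81 to 1.91). Called lower were ATF5 and AC023509.3, which overlaps ATF7 on the same strand. ATF4 and AC023509.3 were named after their values were seen. For comparison, 26 of 453 genes of the C2H2 zinc-finger class (5.74%) were called higher and 4 of 10 E2F-family genes called lower.

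Feedback genes of the ERK pathway had 1 called gene among 15 kept, DUSP8, a phosphatase of JNK and p38 kinases (26 reads in Bulk, 229 in Claret, 2.94). DUSP6, DUSP5 and SPRY2 lay at 0.92 to 0.97, just under the size limit, and SPRY1 at -0.85. Of 18 TGF-beta-family ligands and feedback genes, 1 rose, while ID3 fell by 1.35 and SMAD6 by 1.14. The ligands TGFB1 (0.66), TGFB2 (0.02), INHBA (-0.12) and BMP4 (-0.22) were not called. Among YAP and TEAD target genes, CYR61, a matrix-bound signalling protein, had 19413 reads in Bulk and 48103 in Claret (1.20), the 1 call of 15. CTGF was at 0.90 and TEAD4 at -0.79, neither called.

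Cytokines had 6 higher and 1 lower of the 14 kept, beside 11.2% and 6.72% over all genes. IL1A, an alarm cytokine, had 208 reads in Claret, 205 in Violet and 229 in eGFP, but 18 in Bulk (Claret 3.29, 2.73 to 4.21), and IL1B had 16 and 115 (2.60). CXCL8, which draws neutrophils, rose by 1.75, VEGFA, the vascular growth factor, by 1.53, CXCL3 by 1.39 and IL11 by 1.28. CCL2, which draws monocytes, had 1779 reads in Bulk against 389 in Claret, 442 in Violet and 511 in eGFP (Claret -2.29), so Bulk alone was high. LIF and CSF1 were at 0.67 and 0.26, not called. PTGS2, the inducible cyclooxygenase, rose from 105 to 1153 reads (3.32).

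Interferon-stimulated and antigen-presentation genes had 1 higher and 1 lower of 24, beside 11.2% and 6.72% over all genes. These were MX1 (56 and 129 reads, 1.07) and OAS3 (2380 and 955, -1.42), with B2M, the member with the most reads, at 0.40. On log2(FPKM + 1) MX1 was at 0.41 and after the GC correction at 0.96, under the size limit.

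At the cell surface and in the matrix the changes were scattered. Among collagens, laminins and other matrix proteins, 3 of the 22 kept rose and 1 fell, beside 11.2% and 6.72% over all genes. TNC, the matrix glycoprotein tenascin C, had 6808 reads in Claret, 5429 in Violet and 6384 in eGFP, but 2500 in Bulk (Claret 1.34), and LAMA5, the member with the most reads, rose by 1.11, or 0.93 after the GC correction. COL5A2 fell from 30 to 14 reads (-1.10, -2.24 to -0.25, and -0.18 on log2(FPKM + 1)). ITGB4, the laminin-binding integrin chain of hemidesmosomes, had 2327 reads in Bulk against 7086 in Claret, 8020 in Violet and 5288 in eGFP (Claret 1.498). ITGB8 (19 and 47 reads, 1.12) was the other integrin called of 12 kept, with 0.13 on log2(FPKM + 1), and ITGA3, the member with the most reads, was at 0.92. MMP1, a collagenase, had 84 reads in Claret, 109 in Violet and 118 in eGFP, but 6 in Bulk (Claret 3.33, 2.52 to 5.19). It was the highest of 5 matrix proteases and inhibitors called higher of 18 kept, a count of 3 with a filter at 10 CPM or on log2(FPKM + 1). TIMP3 was lowest at -0.99 and MMP14, the member with the most reads, was at 0.58, neither called.

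Keratin and junction genes had 5 higher and 0 lower of 14 kept, beside 11.2% and 6.72% over all genes. KRT81 had 1064 reads in Bulk against 4968 in Claret, 3453 in Violet and 4644 in eGFP (Claret 2.11, 2.02 to 2.21). CLDN1 rose by 1.66, CLDN7 by 1.62, KRT19 by 1.54 and JUP by 1.01, while KRT8 (-0.02), KRT18 (0.18) and KRT7 (0.22) were not called. JUP was at 0.86 after the GC correction. KRT81 is one of several hair keratins of similar sequence, so its reads are uncertain. Of 20 epithelial-mesenchymal and stem-like markers, 13 were kept. CD24 (57 and 166 reads, 1.40) and SNAI1 (1.03) rose and SNAI2 (113 and 55, -1.12) fell, all 3 under the size limit on log2(FPKM + 1), while CD44 was at -0.01, VIM at 0.46 and SOX9 at -0.28, not called. CDH1, CDH2, TWIST1 and TWIST2 had 0 to 3 reads in Bulk and 0 in Claret, too few to compare.

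Most genes of central metabolism were not called. Of 27 glycolysis and hypoxia-responsive genes, 3 fell (6.72% over all genes) and 1 rose, with 23 not called and a median of -0.52. LDHA, which makes lactate, had 12732 reads in Claret, 12923 in Violet and 12037 in eGFP, but 33794 in Bulk (Claret -1.52, -1.55 to -1.49). PGAM1 fell by 1.46 and TPI1 by 1.03, both named after their values were seen, and GAPDH, the member with the most reads, was at -0.28. The gene that rose was SLC16A1, a lactate and pyruvate carrier, with 0 reads in Bulk against 372 in Claret, 238 in Violet and 331 in eGFP. With Bulk set at 3 reads it was 115-fold higher in Claret, and the counting interval of its log2 ratio started at 6.54. Of 21 cholesterol-synthesis genes 1 rose, MSMO1 (1.42), beside 11.2% over all genes. SCD, the member with the most reads, was at 0.49, not called.

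The 36 cytosolic ribosomal protein genes were between 0.02 and 1.01, with a median of 0.40, and 1 of them was below 0 with DESeq2 size factors, on log2(FPKM + 1) and after the GC correction. RPL3 was highest (27135 and 59016 reads, 1.01) and the 1 called, a call lost with DESeq2 size factors and on log2(FPKM + 1). Many of these genes have pseudogenes of near-identical sequence. Of 25 mitochondrial ribosomal proteins 23 were below 0, with a median of -0.37 and 0 called (MRPS7 lowest at -0.96, MRPS28 highest at 0.81).

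Mitochondrial RNA took 5.48% of Claret reads, 4.18% of Bulk reads, 5.06% of Violet reads and 5.09% of eGFP reads. The 13 mitochondrially encoded proteins differed by -0.63 (MT-ND2) to 0.97 (MT-ND6), with a median of -0.10 and 0 called, though MT-ND6 was at 1.07 after the GC correction. The ribosomal RNAs rose: MT-RNR2 had 109102 reads in Claret, 79177 in Violet and 107948 in eGFP, but 20937 in Bulk (Claret 2.27, 2.25 to 2.30), and MT-RNR1 had 5612 and 13326 in Bulk and Claret (1.14). MT-RNR2 alone took 0.131% of the reads in Bulk and 0.643% in Claret. Over all genes, MT-CO1 gained 6341 CPM, the translation factor EEF1A1 5300 CPM and MT-RNR2 5096 CPM, the largest gains of all genes. The largest losses were PKM (-1583 CPM), the tubulin TUBB (-1549 CPM) and ACTB (-1498 CPM). Both ribosomal RNAs and these 5 genes other than MT-RNR2 were named after their values were seen.

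Some of the largest differences were in genes outside the lists. TXNIP, an inhibitor of thioredoxin and of glucose uptake, had 1657 reads in Bulk against 26000 in Claret, 19542 in Violet and 27931 in eGFP (Claret 3.86, 3.79 to 3.94), or 14.5-fold. UNC5B, a netrin receptor, had 29 reads in Bulk and 687 in Claret (4.37, 3.92 to 5.05). SPX, a neuropeptide, had 8 and 196 (4.21), and PYY, a gut hormone, 1 and 88 (interval 3.84 to 11.67). The germline helicase MOV10L1 and the cytokine receptor IL21R had 108 and 68 reads in Claret and 0 in Bulk. With Bulk at 3 reads they were 33.4-fold and 21.0-fold higher, and the counting intervals of their log2 ratios started at 4.74 and 4.06. On log2(FPKM + 1) neither was past 1, at 0.95 and 0.79. On the lower side, FAM111B, a protease of replicating cells, had 77 reads in Claret, 46 in Violet and 55 in eGFP, but 962 in Bulk (Claret -3.71, -4.11 to -3.42). FAM83D, a spindle protein, fell by 3.11 and GTSE1, a microtubule and p53 regulator, by 2.96. FOXM1 overlaps RHNO1 and ITFG2, KIF20A overlaps BRD8 and CDC23, and GINS2 overlaps GSE1, so their reads are uncertain in part.

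The share of genes that rose differed among classes of non-coding genes, and no difference between classes was tested. Of 470 long intergenic non-coding RNAs (lincRNAs), 150 rose (31.9%) and 17 fell (3.62%), and of 566 antisense RNAs 123 rose (21.7%) and 31 fell (5.48%). Of 12480 protein-coding genes 1202 rose (9.63%) and 856 fell (6.86%), and of 303 processed pseudogenes 27 rose (8.91%) and 25 fell (8.25%). Non-coding genes were also the less expressed, with a median of 2.61 CPM for lincRNAs and 33.1 CPM for coding genes. At 10 CPM and over, 31.9% of 69 lincRNAs, 20% of 55 antisense RNAs and 5.61% of 9755 coding genes rose. Under 10 CPM the share was 31.9% for lincRNAs, 21.9% for antisense RNAs and 24.04% for coding genes.

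Individual non-coding genes included RPLP0P2, a transcribed pseudogene, with 0 reads in Bulk and 57 in Claret, and VLDLR-AS1, antisense to VLDLR, with 6 and 167 reads (4.30, 3.54 to 6.16). AL022322.1 had 1 and 66 reads, and KLHL30-AS1 0 and 42. The lowest was NSFP1, an unprocessed pseudogene of NSF, with 217 reads in Bulk against 3 in Claret, 2 in Violet and 2 in eGFP (Claret interval -8.57 to -4.72). Of the 31-base words of NSFP1, 95.7% occur in other genes, so its reads cannot be separated from theirs. MEMO1P1, a processed pseudogene with 73.2% of its words shared, had 10 reads in Claret, 12 in Violet and 55 in eGFP, but 88 in Bulk, so that eGFP lay nearer Bulk.

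The share of genes that rose varied with expression and length. Among genes at 1 to 2 CPM, 26.9% rose and 7.04% fell, and the share that rose was 3.82% at 50 to 100 CPM, 4.88% at 100 to 500 CPM and 8.30% at 500 CPM and over. The share that fell lay between 3.49% and 8.12% in all 7 bins. By gene length, 20.1% of genes under 1 kb rose and 7.28% of those of 8 kb and over, but these bins also differed in expression, with medians of 2.48 and 46.6 CPM, and the part of length apart from expression was not tested. By chromosome, the share that rose ran from 7.58% on chromosome 4 to 17.6% on chromosome 22, leaving out the 26 mitochondrial genes. Claret also had the greater number of genes with at least 10 reads, as given above, and the part of that in these shares was not tested. The filter and the bins use the mean over the 4 libraries, which admits genes low in Bulk alone more readily than genes high in Bulk alone. The part of this was not tested either.

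**Figure D4:**
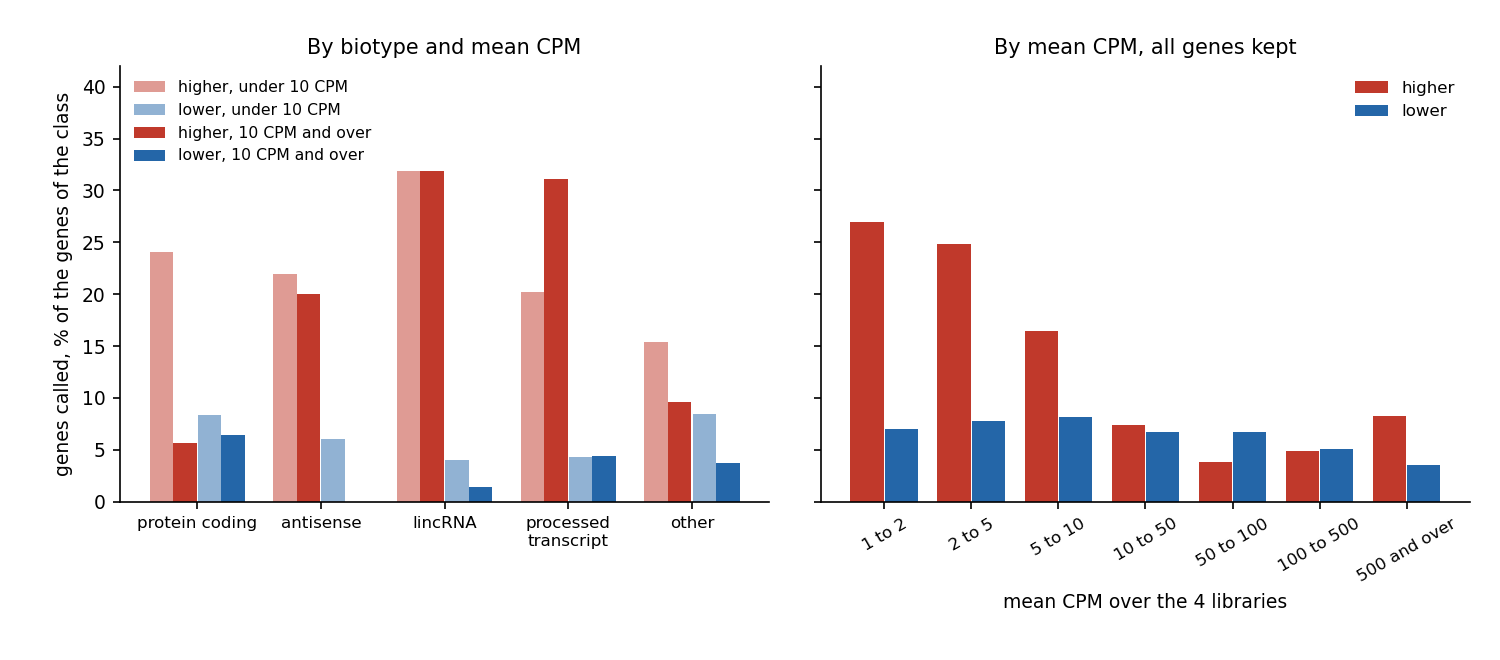
Share of genes called higher (red) and lower (blue), in percent of the genes of each class (vertical axes from 0), by biotype at under and over 10 CPM (left) and by mean CPM of all genes kept (right). LincRNAs have 31.9% called higher on either side of 10 CPM, and coding genes have 24.04% under it and 5.61% over it.

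Motifs were counted on both strands in the 250 bases before the most upstream listed start of 10352 genes. They were CHR (TTTGAA), an E2F site (TTTNGCGC), the NF-Y box (CCAAT), CARE (TGATGNAA), AP-1 (TGANTCA) and SP1 (GGGCGG), of which none contains another in full. The E2F site was in 4.70% of promoters of genes called lower, 1.12% of those called higher and 2.42% of all, and in 12.4% of the division-list promoters. Outside the division lists, 3.23% of promoters of genes called lower held it. The NF-Y box was in 47.6% of those called lower, 32.2% of those called higher and 35.0% of all. AP-1 was in 6.60% of those called higher, 2.71% of those called lower and 4.04% of all. SP1 sites were in 61.5%, 65.8% and 67.0% of the higher, lower and all promoters, and in 72.6% of the division-list promoters. GC content was 63.3% in promoters of genes called higher, 63.5% in those called lower and 64.1% in all. A match is a count of letters and no measure of binding.

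**Figure D5:**
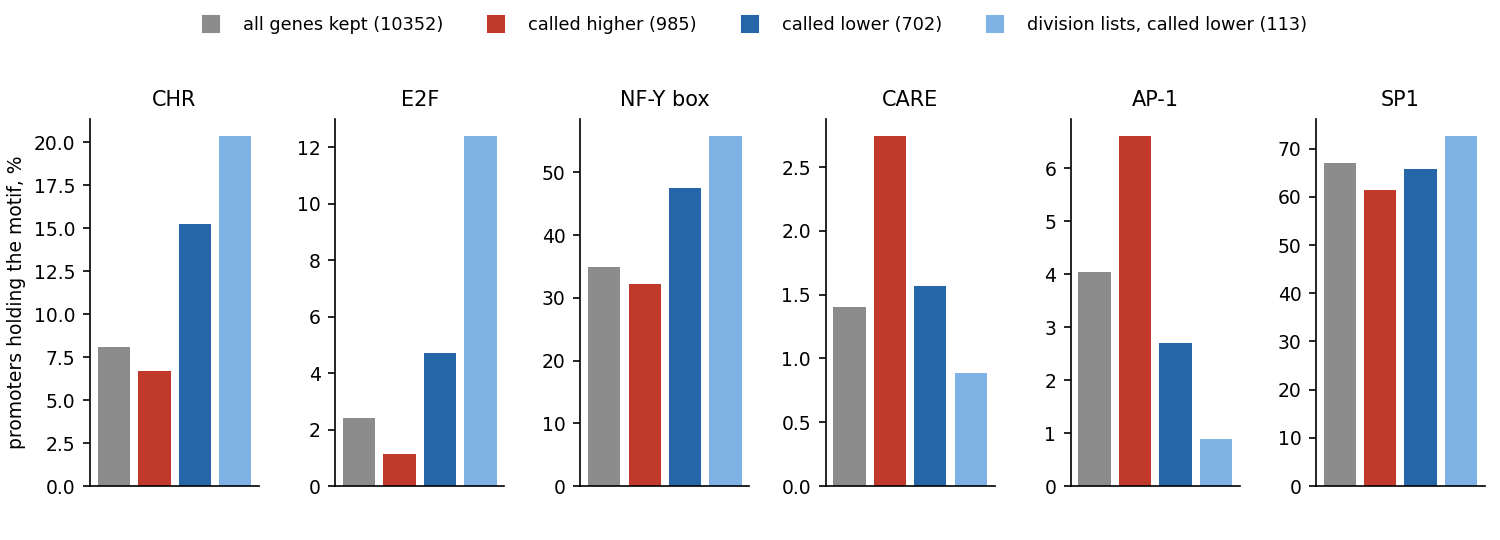
Share of promoters that hold each motif on either strand, in percent (vertical axes from 0, each with its own scale), for all genes kept, genes called higher, genes called lower and division-list genes called lower. The numbers of promoters are in the legend. CHR, E2F, NF-Y box and SP1 shares are highest in the division-list promoters, and the AP-1 share is highest in genes called higher.

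Far fewer genes were called between Claret and the other slow-cycling libraries than between Claret and Bulk. Against eGFP 46 genes were higher in Claret (0.315%) and 65 lower (0.446%), and against Violet 32 (0.219%) and 85 (0.583%), or 0.761% and 0.802% of genes either way. These comparisons share the Claret library. Between 5% and 95% of genes, log2 ratios ran from -0.42 to 0.43 against eGFP and from -0.47 to 0.37 against Violet. Genes called higher in Claret against Bulk had a median of 1.45 in Claret, 1.44 in Violet and 1.48 in eGFP, all against the same Bulk library, and those called lower -1.38, -1.36 and -1.43. Against Bulk, 1731 genes (11.9%) were called higher and 1115 (7.64%) lower in eGFP, and 1696 (11.6%) and 1008 (6.91%) in Violet. E2F2 was the 1 list member called between Claret and eGFP, with 44 and 17 reads, and 0 list members were called between Claret and Violet.

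Claret stood apart from both in 1 direction in 28 genes (0.192%), 8 above and 20 below. The largest gaps were in genes with near-identical copies. BOLA2B had 24 reads in Bulk against 325 in Claret, 6 in Violet and 2 in eGFP, and 93.0% of its 31-base words occur elsewhere. Summed with its copy BOLA2, the reads in the order Bulk, Claret, eGFP, Violet were 25, 325, 3 and 7, so the sum was high in Claret as well. EIF3CL had 63, 591, 30 and 43 reads in the same order and EIF3C, its copy, 1026, 224, 686 and 624. Summed, they had 1089, 815, 716 and 667, so most of the difference between the slow-cycling libraries was in the split between the copies. Among genes with little shared sequence, CCDC153 had 20 reads in Claret, 60 in Violet and 62 in eGFP, but 27 in Bulk.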

How the data were processed

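RNA was sequenced from 4 sorted fractions of MDA-MB-231, 1 library each. Per the labels' protocols, RNA was taken with TRIzol and libraries were made with NEBNext Ultra from 1.0 μg of total RNA. Per the submitters' processing notes, reads were aligned with HISAT2 2.0.5 and counted with featureCounts 1.5.0-p3. The genome build, strand setting and handling of reads with several positions are not given in the sources used here. Start and end of 58724 of 58735 genes match GENCODE 29 (GRCh38). The deposited counts are whole reads per gene, and the deposited FPKM values equal the counts over length times 1 constant per library. Counts were used for all tests and FPKM for levels between genes and as an alternative scale.

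Genes with a mean of 1 CPM were kept, and CPM used TMM effective library sizes (edgeR 4.0.16, R 4.3.3). Each library pair was compared with the two-sided exact conditional binomial test (SciPy 1.17.1) with Benjamini-Hochberg adjustment over 14585 genes. Log2 ratios carry a prior count of 2, and intervals are 95% Clopper-Pearson intervals that cover counting error only. A quasi-likelihood fit in edgeR was not possible, since 1 library a group leaves nothing to estimate the spread from. On simulated counts the step was checked for recovery of changed genes. DESeq2 1.42.0 gave the alternative size factors. Promoters are RefSeq's for GRCh38.p14. Members and gene lists were chosen with earlier results of these data known.

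Genes named are the 12 coding genes called each way with intervals farthest from 0, the 6 each way with the largest ratios at 50 CPM and over, the 4 non-coding genes each way, and the 4 coding genes each way that stood apart from eGFP and Violet. In each list they are the highest, the lowest and the most expressed member, and any member of lists of 20 or fewer. Some genes these rules name are not reported here. Other names were chosen after their values were seen.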

Additional observations from a re-analysis of the deposited data

Results flagged for a closer look

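Between Claret and eGFP 111 genes were called by a test on the reads of these libraries, and between Claret and Violet 117, with 28 apart from both in 1 direction. The values below are for 11 of the called genes, 8 apart from both and 3 others called in opposite directions against Bulk. BOLA2B was higher in Claret by 6.27 (log2) than in eGFP and by 5.25 than in Violet. EIF3CL was higher by 4.12 and 3.61, ADM5 by 1.07 and 1.15, and TBC1D3G by 1.03 and 1.503. SMIM11A had log2 differences of -3.59 and -2.08, NOP2 of -1.85 and -1.86, CCDC153 of -1.63 and -1.60, and EIF3C of -1.70 and -1.58. SERF1B (-4.19) and MAGEA2B (-2.36) were called lower in Claret and higher in eGFP against Bulk. RPL29P11 (-2.59) was called lower in Claret and higher in Violet. Each value rests on 1 library a side. The share of 31-base words found in other genes was 98.2% for SERF1B, 90.4% for MAGEA2B and 79.4% for RPL29P11. It was 100% for TBC1D3G, 98.5% for EIF3CL, 93.2% for SMIM11A, 93.0% for BOLA2B, 53.3% for NOP2 and 48.2% for EIF3C. For ADM5 it was 19.9% and for CCDC153 1.25%. Where the share is high, reads cannot be separated from those of other genes. SMIM11A and NOP2 had 5 reads each in Claret.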

How the results depend on the processing

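With a filter at a mean of 10 CPM, 612 genes were higher and 639 lower in Claret than in Bulk, and on log2(FPKM + 1) 589 and 619. The edgeR exact test with an assumed coefficient of biological variation of 0.4 gave 24 and 2, and a log2 limit of 2 gave 387 and 182. Groups from the treatment field gave 1008 and 1696. Library totals, DESeq2 size factors, no filter, a prior count of 0.5 and the GC correction, the last chosen after seeing the data, left both counts within 1.5 times the main ones. Between Claret and eGFP 8 genes were called with the 10 CPM filter and 24 on log2(FPKM + 1), against 111. Between Claret and Violet 191 were called with no filter, 11 with the 10 CPM filter and 19 on log2(FPKM + 1), against 117. Of 239 genes with alternatives, 204 kept their side of the limit in all those counted, and 0 reversed. That count covers the filters, the library scalings, log2(FPKM + 1), the prior count and the GC correction. It leaves out the edgeR exact test, the log2 limit of 2 and the groups from the treatment field. On log2(FPKM + 1) 28 called genes were under it (MOV10L1, IL21R, RPLP0P2, KLHL30-AS1, AC083843.2, NOP2, ALDH1L2, BCL2, BMF, CD24, COL5A2, CXCL3, DNAJB9, ITGB8, JUP, MAFF, MX1, NR4A1, PIK3IP1, PPP1R15A, RBL2, RPL3, SMAD6, SNAI1, SNAI2, TP53INP1, WIPI1 and ZFP36), and after the GC correction 8 (BCL2, CDKN1A, JUND, JUP, LAMA5, MAFF, MX1 and SNAI1). Filters and scalings were changed one at a time. No paired analysis was possible because each group is 1 library. A test over replicates could not be made for the same reason.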
